A study of Mus musculus with 8 samples.

Results

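The cytosolic ribosomal protein genes encode the protein part of the ribosome that translates nuclear-encoded mRNA. They were chosen by symbol: every feature whose symbol starts with Rpl or Rps followed by a digit, plus Rplp0, Rplp1, Rplp2 and Rpsa, with pseudogene symbols and the Rps6k kinases left out. This gave 86 of 32285 features in the shared feature table. Of these, 77 were main copies, 31 for the small subunit and 46 for the large subunit. The other 9 were paralogs or related symbols: Rpl22l1, Rps27l, Rps27rt, Rpl10l, Rpl36al, Rpl39l, Rpl3l, Rpl7l1 and Rps19bp1. All 86 had a RefSeq position, and they lie on 19 chromosomes.

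All 8 libraries came from mice labelled C57BL/6. The single-cell libraries were control small intestinal organoids, the same kind of organoids in coculture, sorted small intestine and sorted large intestine, with 1 library each. The organoids were at passage 1, and 16 wells of each culture were pooled before 100000 epithelial cells were sorted. The cocultured cell type is not named in the labels, and the series title speaks of lymphatics. The tissue libraries combined live cells with sorts for LGR5+ cells and for CD31+ PDPN+ LYVE1+ lymphatic endothelial cells. They used C57BL/6 mice and Lgr5-eGFP-ires-CreERT2 mice, a knock-in reporter at the Lgr5 locus on the same background, so class sizes describe the sort and not the tissue. The other 4 libraries were Visium spatial libraries from 10 µm cryosections, 2 technical duplicates of each intestine. The number, age and sex of the mice are not given in the sources used here.

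Every value below is a count of unique molecular identifiers (UMIs), which stand for captured mRNA molecules, or is made from such counts. CPM is counts per 1e6 UMIs of the same cells or spots, and the RP share is the percentage of all UMIs that came from the 86 ribosomal protein (RP) genes. Cells and spots are not replicates and the Visium sections are technical duplicates, so no p-value is given. Intervals are exact 95% intervals and cover counting error only. Kept cells numbered 538 in the control organoids, 1028 in the cocultured organoids, 2695 in small intestine and 5882 in large intestine, with median UMIs from 11810 to 86295 per cell. In small intestine 5497 of 8842 barcodes had over 20% mitochondrial UMIs and were left out. The 4 sections kept 2094 to 2571 spots, with median UMIs from 9039 to 19822. Barcodes found in both libraries of a kind numbered 25 for tissue and 0 for organoids.

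Ribosomes are built from 2 subunits in which rRNA and one copy of most ribosomal proteins assemble in fixed proportions, so the genes of the family tend to be expressed together. Their mRNAs, like those of several elongation factors, start with a 5′ terminal oligopyrimidine (TOP) tract. LARP1 and mTOR signalling act on this tract to switch translation of these mRNAs on or off. In the intestine, stem and cycling progenitor cells sit in the crypts, and their descendants mature as they move to the villus or, in the large intestine, to the surface. Growing cells are known to spend much of their transcription on making ribosomes.

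RefSeq (GRCm38.p6) gave promoter windows for 66 of the 86 members. An unbroken run of at least 8 pyrimidines (C or T), within 25 bases before and 25 after an annotated start on the transcribed strand, was in 33 of the 66 (50.0%). It was in 30 of 57 main copies (52.6%), in 3 of 9 paralogs or related members and in 22.3% of all 27025 genes in the table. On the opposite strand the shares were 7.58% of members and 24.4% of all genes. The letters CTTTC, which can lie inside such a run, were in 30.3% of members and 7.87% of all genes on the transcribed strand, and in 10.6% and 7.07% on the other strand. A match describes the letters near an annotated start. It does not place a TOP tract.

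The windows of members on which the results turn are given here, 10 bases before to 20 after the annotated start, 5′ to 3′ on the gene's strand. They cover promoter and the start of the first exon, and capitals mark the longest pyrimidine run in the window, or the first of 2 equally long runs in Rps27rt. The Rps27l run shown meets the edge of its window. In the wider search above, the longest run around that start was 9 bases. Rpl12 had the largest crypt or stem excess in several comparisons. Rps6, Rpl14 and Rpl28 carry long runs, and Rack1, a ribosome-bound protein outside the symbol rule, followed the family most closely. Rps27, its retrogene copy Rps27rt and its paralog Rps27l, and Rpl36al, were each among the members not called in at least 1 comparison of stem-like or cycling-like with mature cells.
Rpl12, chr2:32961702-32961731, plus strand: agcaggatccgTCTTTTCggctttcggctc
Rps6, chr4:86857348-86857377, minus strand: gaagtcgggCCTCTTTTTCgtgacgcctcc
Rpl14, chr9:120571507-120571536, plus strand: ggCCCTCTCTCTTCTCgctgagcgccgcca
Rpl28, chr7:4792955-4792984, plus strand: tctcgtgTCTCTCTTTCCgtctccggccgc
Rack1, chr11:48800350-48800379, plus strand: gccgCTCTTTCTTTTTCTCCacagggtcgt
Rps27, chr3:90213629-90213658, minus strand: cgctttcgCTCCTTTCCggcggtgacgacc
Rps27rt, chr9:114982720-114982749, minus strand: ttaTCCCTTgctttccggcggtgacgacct
Rps27l, chr9:66946076-66946105, plus strand, 1 of 2 listed starts: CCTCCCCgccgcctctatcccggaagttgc
Rpl36al, chr12:69184048-69184077, minus strand: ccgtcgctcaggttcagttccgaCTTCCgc
In the first 50 bases after the start, Rps27rt and Rps27 shared an unbroken stretch of 38 bases. Rps27l and Rps27 shared at most 5 there. The rest of the transcripts was not compared, so whether reads from these genes can be told apart was not tested.

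In small intestine the RP share was highest in the stem-like cells among the epithelial classes. It was 26.4% of UMIs in 158 stem-like cells (interval 26.3 to 26.4%), 22.2% in 363 cycling-like cells and 11.7% in 334 enterocyte-like cells. Goblet-like cells stood at 14.2%, enteroendocrine-like at 11.9%, tuft-like at 11.3% and Paneth-like at 2.61%. With cells of up to 50% mitochondrial UMIs kept before clustering, cycling-like cells stood above stem-like cells, as given below. Epithelial cells outside the mature class chosen by an Lgr5 UMI stood at 17.5% of summed UMIs, below the cycling-like class. Defa24 was their most abundant gene, as given below. The stem-like class held 148 CPM of Lgr5 and 5697 CPM of Olfm4, both crypt stem markers, against 0.630 and 66.3 CPM in the enterocyte-like class. Fabp1, an absorptive fatty acid carrier, was at 23.2 CPM in the stem-like and 5787 CPM in the enterocyte-like class.

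In large intestine the same order held for stem-like (26.6%, 383 cells), cycling-like (23.2%, 823 cells) and colonocyte-like cells (12.8%, 379 cells). Deep crypt secretory-like cells stood at 17.8%, tuft-like at 19.8%, enteroendocrine-like at 17.5% and goblet-like at 12.1%. Cells of clusters without a name, the largest group of this library (1507 cells), stood at 24.2%, between the stem-like and cycling-like classes. With doublets kept, cycling-like cells stood above stem-like cells, as given below. Lgr5 was at 56.1 CPM in the stem-like and 3.67 CPM in the colonocyte-like class, while Olfm4, which mouse colon stem cells are known to lack, was at 0.110 CPM in the stem-like class. Mki67, a proliferation marker, was at 580 CPM in the cycling-like and 88.6 CPM in the stem-like class. Secretory markers also differed between these classes. The goblet list summed to 1733, 9530 and 5855 CPM and the deep crypt secretory list to 1115, 7555 and 3336 CPM in stem-like, cycling-like and colonocyte-like cells. In the cycling-like class both lists summed to more than the cycling list, at 3993 CPM. In the stem-like class the goblet list summed to more than the stem list, at 1296 CPM, and the stem list stood at 907 CPM in the cycling-like and 123 CPM in the colonocyte-like class. The part of secretory cells in the RP shares was not tested.

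Stem-like cells had nearly the same RP share in all 4 single-cell libraries, from 26.4% in small intestine to 27.6% in cocultured organoids, although the libraries differ in depth. B-like cells stood at 22.9% and 29.7%, and T or NK-like cells at 23.5% and 29.1%, in small and large intestine, below the stem-like share in the first and above it in the second. Lymphatic endothelial-like cells stood at 8.20% and 11.5%, and plasma-like cells at 6.42% and 8.77%. B and T or NK marker lists in the stem-like, cycling-like and mature classes summed to between 0.220 and 5.54 CPM. Markers of other cell types were present in these classes. The plasma list summed to 924, 370 and 396 CPM in stem-like, cycling-like and enterocyte-like cells of small intestine, and to 488, 551 and 542 CPM in stem-like, cycling-like and colonocyte-like cells of large intestine. The Paneth list summed to 3058, 2636 and 2719 CPM in those classes of small intestine, and the erythroid list to 361 CPM in large intestine stem-like cells. Their part in the RP shares was not tested.

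**Figure D1:**
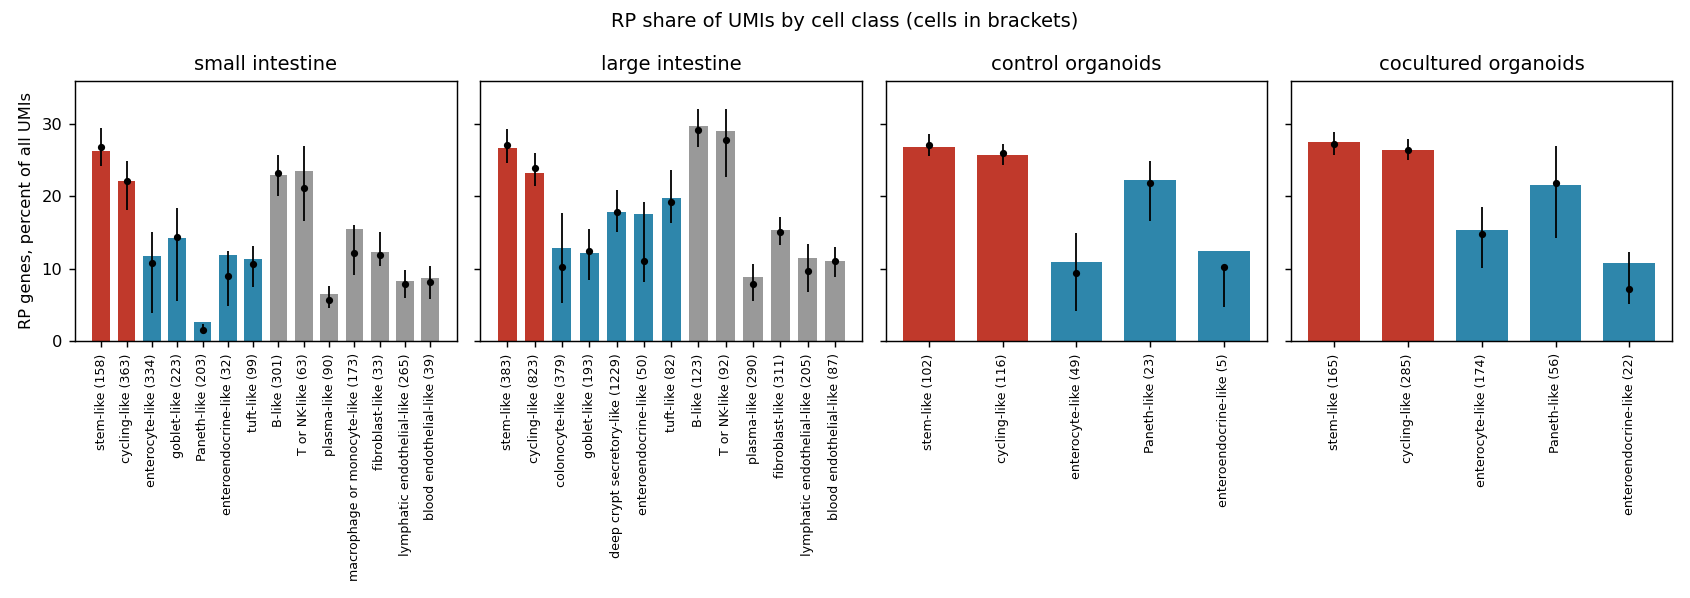
RP genes as a percentage of all UMIs (y axis) in each named class of the 4 single-cell libraries, with the number of cells in brackets. Bars are shares of summed UMIs (red, stem-like and cycling-like; blue, other epithelium; grey, other cells), and points with lines are medians and quartiles over cells. Stem-like bars sit between 26.4% and 27.6% in every library, and the Paneth-like bar of small intestine is lowest at 2.61%.

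A share depends on what else a cell makes. In the Paneth-like class 33.3% of all UMIs came from Defa24, an antimicrobial defensin, and the 50 most abundant genes outside the RP and mitochondrial sets took 82.4%. Without mitochondrial genes and those 50 genes, RP genes made up 18.0% of the remaining UMIs in Paneth-like, 17.2% in enterocyte-like and 33.7% in stem-like cells. On this denominator the Paneth-like and enterocyte-like classes were close, and the stem-like class stayed highest of these 3. In plasma-like cells of small intestine, where the immunoglobulin gene Igkc took 38.0%, the remaining share was 23.7%.

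The mature classes were mixed. In enterocyte-like cells the quartiles over cells ran from 3.86% to 15%, and in colonocyte-like cells from 5.26% to 17.7%. The enterocyte-like class joined 3 clusters with RP shares of 13.3%, 11.9% and 5.28%, the last (98 cells) led by Clca4a, Cubn and Fgf15. The colonocyte-like class joined 2, at 16.5% (210 cells) and 7.21% (169 cells). Mitochondrial UMIs were 10.1% and 11.3% in the highest and lowest enterocyte-like clusters, and 10.2% and 13.4% in the colonocyte-like ones. Their part in the RP share was not tested.

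Against enterocyte-like cells, the log2 ratio of the RP share was 1.17 in stem-like cells (interval 1.16 to 1.17) and 0.92 in cycling-like cells. Against colonocyte-like cells it was 1.05 (interval 1.05 to 1.06) and 0.86. The size depended on which mature cells were compared. Against single clusters, the small intestine stem-like ratio ran from 0.98 to 2.32 and the large intestine one from 0.69 to 1.89. For cycling-like cells these ranges were 0.73 to 2.07 and 0.49 to 1.69. With a limit of 10% mitochondrial UMIs set before clustering, the large intestine ratios were 0.32 for stem-like and 0.11 for cycling-like cells. With the same limit applied to the classes as named they were 0.44 and 0.23. With a limit of 50% before clustering they were 1.63 and 1.40, and the small intestine stem-like ratio was 0.70. With more and smaller clusters the large intestine ratios were 1.58 and 1.31. In small intestine, epithelial cells outside the mature class chosen by an Lgr5 UMI gave 0.58, against 1.17 for the stem-like class. In these 304 cells Defa24 was the most abundant gene, at 10.3% of UMIs. Their RP share was 17.5% of summed UMIs, 23.7% in the median cell and 28.7% of UMIs without mitochondrial genes and the 50 most abundant others.

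A member was called higher or lower when its CPM differed by at least 0.5 on the log2 scale, with at least 100 UMIs over both groups. Rpl10l and Rpl39l, known from testis, and Rpl3l, known from striated muscle, held at most 12 UMIs in any library and did not reach that minimum. The other 83 passed it in each comparison. In small intestine 81 of the 83 were higher in stem-like than enterocyte-like cells, where 41.7% of all 8071 genes tested were, and 81 were higher in cycling-like cells (background 44.8%). In large intestine 81 were higher in stem-like than colonocyte-like cells (background 38.7%) and 78 in cycling-like cells (background 43%). The large intestine counts depended on the limit on mitochondrial UMIs, which was 20% for the counts above. With the limit of 10% before clustering, 0 of 83 were higher in either comparison (background 11.2% and 14.7%). With that limit within the named classes, 23 and 4 were (background 29.4% and 33.4%). Against the colonocyte-like cluster with the higher RP share, 70 and 43 were (background 35.8% and 39.6%). In small intestine the same 10% limits left 78 of 82 members higher in stem-like cells under both (background 36.8% and 37.9%). In cycling-like cells they left 74 and 78 of 83 (background 40.2% and 43.1%). Small intestine cells chosen by an Lgr5 UMI gave 54 members higher (background 35.8%). With the limit of 20%, none was called lower in these 4 comparisons, where 27.3%, 20.3%, 23.3% and 21.6% of all genes were. The members not called in small intestine were Rps27l (-0.13 in stem-like, 0.14 in cycling-like cells) and Rpl36al (0.26 and 0.46). In large intestine stem-like cells they were Rps27l (0.44) and Rps27rt (0.48). In large intestine cycling-like cells they were Rps27 (0.30), Rps27rt (0.31), Rpl9 (0.32), Rps29 (0.40) and Rps27l (0.46). Median log2 ratios of the members were 1.16, 0.91, 1.04 and 0.85 in that order, against 0.25, 0.36, 0.23 and 0.32 over all genes tested. Genes with at least 10 UMIs in each group had medians of 0.48, 0.35, 0.26 and 0.23, by which every ratio would drop under a median-of-ratios scaling. The RP share ratios would then be 0.69, 0.56, 0.79 and 0.63, with 65, 55, 74 and 59 members higher. The backgrounds above do not apply to these counts, and the share of all genes called under that scaling is not given here. Under that scaling Rpl36al would be at -0.22 in small intestine stem-like cells and Rps27l at -0.21 in cycling-like cells. In small intestine stem-like cells Rps27l, below 0 without the scaling, would be called lower.

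In the classes as named, stem-like cells stood slightly above cycling-like cells, an order that turned under some alternatives given below. Of the 83 members, 78 had a ratio above 0 in small intestine and 79 in large intestine, with medians of 0.24 and 0.20, but none reached the fold of the calls (background 12.2% and 8.78% of genes higher, 14.4% and 13% lower). Mitochondrial ribosomal protein genes, whose products serve the separate ribosome inside mitochondria, had medians of -0.35 and -0.05 there. In small intestine 17 of these 78 were called lower in stem-like cells (background 14.4%).

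Among large subunit members, Rpl12, a protein at the base of the ribosomal stalk, stood at 3483 CPM in stem-like, 2744 in cycling-like and 1059 in enterocyte-like cells of small intestine. In large intestine it stood at 3720, 3214 and 1361 CPM in stem-like, cycling-like and colonocyte-like cells. Both series step down from stem-like to mature cells. The stem-like ratios were 1.72 (interval 1.68 to 1.76) and 1.45 (interval 1.42 to 1.48). Rpl3, which lies near the peptidyl transferase centre, had ratios of 1.57 and 1.48. Rpl5 and Rpl11, which join 5S rRNA and bind Mdm2 when free, had 1.41 and 1.11 in small intestine and 1.19 and 1.04 in large intestine. The stalk proteins Rplp0, Rplp1 and Rplp2 had 1.09, 1.17 and 1.15 in small intestine and 0.80, 0.85 and 1.02 in large intestine.

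Among small subunit members, Rpsa, also known as the laminin receptor precursor, stood at 5077 CPM in stem-like and 1861 CPM in enterocyte-like cells, a ratio of 1.45. In large intestine its ratio was 1.41. Rps6, the substrate of S6 kinase, had 1.40 and 1.22, and Rps19, mutated in Diamond-Blackfan anaemia, had 1.40 and 1.34. Rps2, at the mRNA entry channel, had 1.2 in small intestine and 1.5 in large intestine, the highest member there. At the other end, Rps29 had 0.77 and 0.63, and Rps27 had 0.98 and 0.64. As a group, small subunit main copies had medians of 1.23 and 1.09 and large subunit main copies 1.15 and 1.01. UMIs of the large over the small subunit stood at 1.22 in stem-like and 1.27 in enterocyte-like cells, and at 1.24 in stem-like and 1.29 in colonocyte-like cells.

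Rps27l, a p53-inducible paralog of Rps27 (gene at chr9:66944624-66949522), stood at 536 CPM in stem-like, 649 in cycling-like and 587 in enterocyte-like cells of small intestine. Its stem-like ratio was -0.13 (interval -0.21 to -0.05), and it was the only member below 0 there. In large intestine it stood at 669, 674 and 492 CPM in stem-like, cycling-like and colonocyte-like cells, a stem-like ratio of 0.44 (interval 0.39 to 0.50). Rpl36al, a paralog of Rpl36a (gene at chr12:69182734-69184067), had ratios of 0.26 and 0.77, while Rpl36a had 1.43 and 1.13. Of the UMIs of that pair, Rpl36al thus held 53.5% in stem-like and 72.2% in enterocyte-like cells (interval 71.3 to 73.0%), and 63.7% and 69.1% in stem-like and colonocyte-like cells. Its share of the pair was highest in goblet-like cells, at 76.3% and 80.6%.

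Rpl22l1 did not depart in this way. It held 35.8% of the Rpl22l1 and Rpl22 UMIs in stem-like and 36.1% in enterocyte-like cells (interval 35.3 to 36.9%). Goblet-like cells were higher at 42.9% and 47.9%, and lymphatic endothelial-like cells lower at 20.5% and 21.3%, in small and large intestine. Rpl7l1 and Rps19bp1, named for homology or for binding Rps19, were at 68.4 and 54.2 CPM in small intestine stem-like cells, with stem-like ratios of 0.71 and 0.64.

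Over the 14 named epithelial classes of both tissue libraries, 76 members had at least 100 UMIs in every class. Their log2 CPM followed the log2 RP share with a median Pearson correlation of 0.99, and 74 of the 76 stood at 0.9 or above. Rps27l (0.884) and Rpl36al (0.898) were the exceptions. Each member is part of the share, and the classes of a library share depth and the scaling by total UMIs, so these values are descriptions. All 76 were lowest in the Paneth-like class of small intestine, where the RP share was 2.61%. Correlations without that class are not given here, for members or for the other genes that follow. Among 337 other genes counted as deeply, the 5 most like the family were Rack1 (0.996), Eef1b2 (0.99), Eef1a1 (0.99), Naca (0.983) and Eef1g (0.978).

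Rack1 and Fau also encode parts of the ribosome without an Rpl or Rps symbol. Rack1 had stem-like ratios of 1.30 and 1.21. Fau, which encodes a ribosomal protein fused to a ubiquitin-like protein, had -0.13 and 0.23. Of 14 elongation factor and other TOP genes, 14 and 13 were higher in stem-like cells of small and large intestine, with medians of 1.19 and 1.03. Of 26 ribosome assembly genes, 23 and 26 passed the minimum and all of these were higher, with medians of 2.44 and 1.87. Ncl, the nucleolar protein nucleolin, had 2.96 and 2.58, and Npm1 had 2.87 and 2.07. Of the 8 of 9 regulators that passed, 6 and 4 were higher and none lower, with Myc, a transcription factor that drives ribosome production, at 4.90 and 3.50. Of 78 mitochondrial ribosomal protein genes, 25 and 49 were higher and 9 and 1 lower, with medians of 0.26 and 0.62. Over all genes tested, 41.7% and 38.7% were higher and 27.3% and 23.3% lower, the background for each of these lists.

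**Figure D2:**
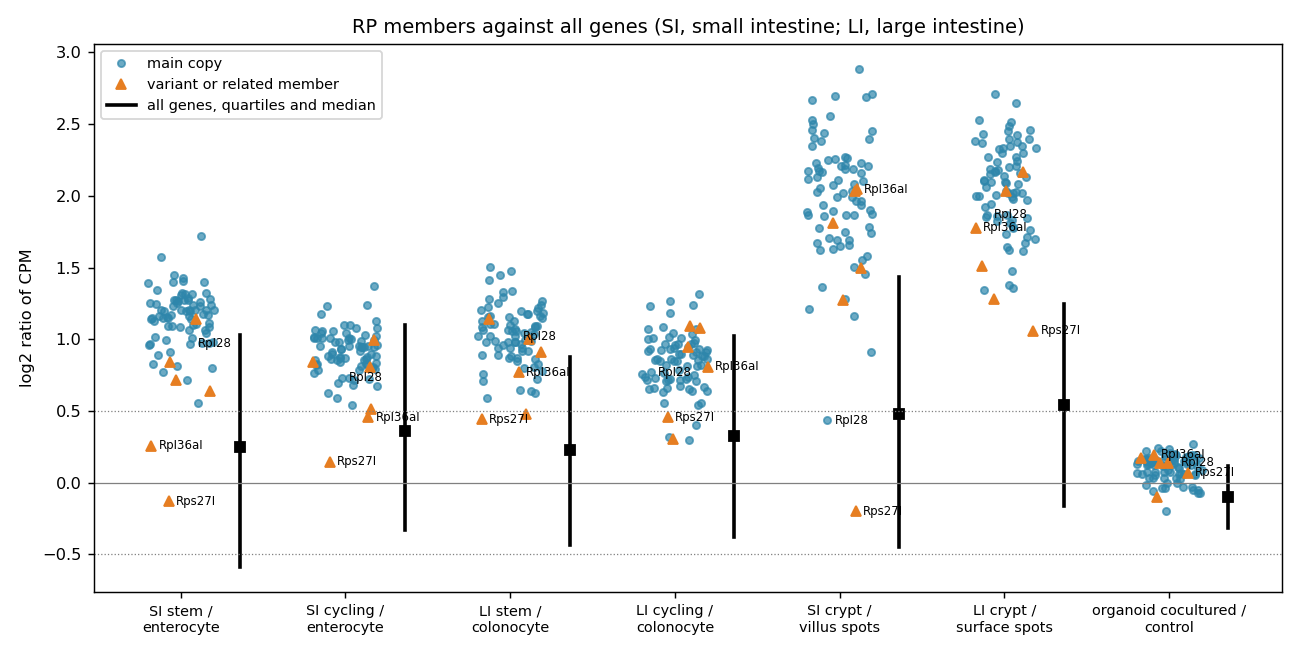
Log2 ratio of CPM (y axis) of each of the 83 members that passed the UMI minimum in 7 comparisons (x axis); circles are main copies, triangles are paralogs or related members, and black squares with bars are the median and quartiles of all genes tested. Dotted lines mark the fold of the calls. In large intestine stem-like cells and large intestine spots all 83 members lie above the all-gene median, and in the organoid comparison all lie between the dotted lines.

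The Visium sections gave the same order along the crypt axis with no clustering or dissociation. Spots were ordered by crypt marker minus villus or surface marker scores, which use no RP gene, and cut into 5 equal groups. In small intestine section 1 the RP share was 9.96%, 7.72%, 6.67%, 3.93% and 2.75% from the crypt end to the villus end, and in section 2 it was 7.91%, 6.57%, 5.04%, 2.77% and 1.90%. In large intestine section 1 it was 22.2%, 17.8%, 13.5%, 9.36% and 5.42% from the crypt end to the surface end, and in section 2 it was 23.8%, 18.5%, 14.2%, 9.78% and 5.78%. Each step was downward in each of the 4 sections. The crypt-end log2 ratio was 1.96 ± 0.14 in small intestine (SD, n = 2 technical duplicates) and 2.04 ± 0.0064 in large intestine (SD, n = 2 technical duplicates). Genes with at least 10 UMIs at each end had medians of 0.75 and 0.57, and under a median-of-ratios scaling the RP share ratios would be 1.2 and 1.46.

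A spot holds several cells, and fewer cells of a type cannot be told apart from less RNA per cell. In small intestine the muscle marker list ran from 1130 to 27196 CPM over the groups and was highest in the second group from the crypt end. The plasma list ran from 3199 to 12274 CPM in small intestine and from 12397 to 28270 CPM in large intestine. The lymphoid list ran from 23.3 to 60.1 CPM. Without the spots above the section's median muscle share, the ratios were 2.23 and 2.20. Whole small intestine sections had RP shares of 5.79% and 4.39%, and large intestine sections 13.9% and 14.3%. The whole sections of small and large intestine were apart, while their groups along the axis overlapped. Median UMIs per spot also differed between the tissues, and the part of depth was not tested.

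**Figure D3:**
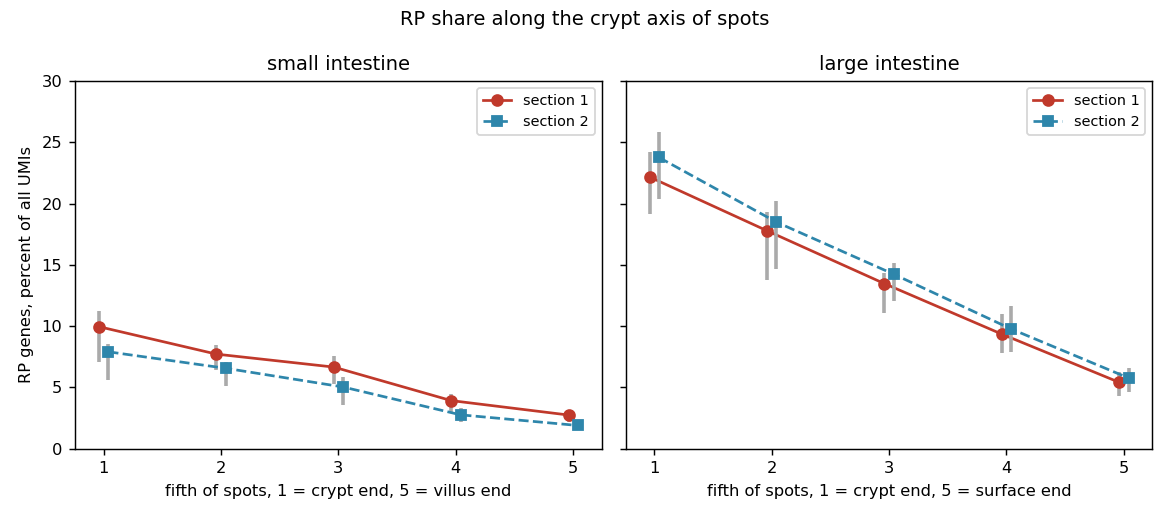
RP genes as a percentage of all UMIs (y axis) in 5 equal groups of spots ordered from the crypt end (1) to the villus or surface end (5), for both sections of each intestine. Lines join shares of summed UMIs and grey bars are quartiles over spots. All 4 lines step down at each group, from 9.96% to 2.75% in small intestine section 1 and from 22.2% to 5.42% in large intestine section 1.

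In small intestine 81 of 83 members were higher at the crypt end in both sections (background 45.2%), and in large intestine 83 were (background 48.3%). None was lower in both sections, where 21.8% and 16.7% of all genes were. Medians were 2.03 and 2.08, against 0.48 and 0.54 over all genes. Under the median-of-ratios scaling the member medians would be 1.27 and 1.51, with 77 and 82 members higher. The backgrounds above do not apply to these 2 counts, and the share of all genes called under that scaling is not given here. Rpl12 was again highest, at 967 CPM at the crypt end and 151 CPM at the villus end of section 1, and 667 and 78.5 CPM in section 2. Its log2 ratio was 2.89 ± 0.28 (SD, n = 2), and in large intestine 2.71 ± 0.0027 (SD, n = 2). Rpl36a and Rpl3 followed in small intestine at 2.71 and 2.69, and Rps2 in large intestine at 2.65.

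Rpl28, a large subunit protein specific to eukaryotes, stood apart in small intestine. It was at 1034 and 714 CPM at the crypt and villus ends of section 1 and at 854 and 677 CPM in section 2, a ratio of 0.43 ± 0.14 (SD, n = 2), which would be -0.32 under the median-of-ratios scaling. In large intestine its ratio was 1.87 ± 0.026 (SD, n = 2), and in small intestine stem-like cells 0.97. Rps27l was at 396 and 424 CPM at the crypt and villus ends of section 1 and at 277 and 341 CPM in section 2. Its level was thus slightly lower at the crypt end of both small intestine sections. Under the median-of-ratios scaling it would be called lower there, the only member so called. In large intestine it was at 643 and 313 CPM, and 699 and 330 CPM, higher at the crypt end. Fau had ratios of -0.01 and 0.73, well under the family in both intestines.

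Paralog shares also shifted along the axis. Rpl22l1 held 28.2% and 32.2% of its pair at the crypt end of the small intestine sections and 43.8% and 48.8% at the villus end. In large intestine it held 30.2% and 27.6% at the crypt end and 31.8% and 30.7% at the surface end. UMIs of the large over the small subunit stood at 1.26 and 1.28 at the crypt end and 1.33 and 1.39 at the villus end, and in large intestine at 1.30 and 1.29 against 1.47 and 1.45.

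The members did not all differ to the same extent, and their order was partly shared. Over the 83 members, the stem-like ratios of small and large intestine, from separate libraries, had a Spearman correlation of 0.77 and a Pearson correlation of 0.73. Stem-like ratios of large intestine and crypt-end ratios of large intestine sections had 0.86 and 0.85. The matching small intestine pair had 0.65 and 0.70, and the ratios of both intestines' sections 0.74 and 0.72. Small intestine stem-like and large intestine section ratios had a Spearman correlation of 0.77, and large intestine stem-like and small intestine section ratios 0.61. Organoid ratios of stem-like against enterocyte-like cells were less alike, with Spearman correlations of 0.33 to 0.49 with the other 4. These are correlations across genes, which are not independent replicates. Rpl12, Rpl3, Rpl5, Rpl14, Rpl27a and Rpsa ranked among the highest 25% of members in all 5 comparisons, and Rps27, Rps29 and Rps14 were among those in the lowest 25% in all 5. These genes were singled out after their values were seen.

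Coculture was compared with control organoids over all kept cells and within classes. The RP share was 22.1% in control and 23.9% in cocultured organoids. The log2 ratio was 0.11, and 0.07 with the limit of 10% mitochondrial UMIs. No member was called higher (background 4%) or lower (background 11.2%). The median over members was 0.13, with 69 of 83 above 0, where the median over all genes was -0.10. Genes with at least 10 UMIs in each library had a median of -0.12. Under a median-of-ratios scaling the RP share ratio would be 0.23 and 82 of 83 members would be above 0, still with none called. The highest members were Rpl29 at 0.27 (1772 CPM in control, 2132 in coculture) and Rpl18 at 0.24, and the lowest was Rpl23a at -0.19 (1364 and 1192 CPM). There was 1 library per condition, so no spread between cultures is known.

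Within crypt classes the libraries were closer still. Stem-like cells stood at 26.9% in control (102 cells) and 27.6% in coculture (165 cells), and cycling-like cells at 25.7% (116 cells) and 26.4% (285 cells). Member medians were 0.05 in both classes, and no member was called in either (background 1.26% and 2.85% higher, 6.18% and 6.62% lower). Paneth-like cells stood at 22.2% (23 cells) and 21.6% (56 cells), and there Rpl23a alone was called lower, at -0.58 (background 23%), with none higher (background 3.58%).

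Enterocyte-like organoid cells differed more. Their RP share was 10.9% in 49 control cells and 15.4% in 174 cocultured cells, with a member median of 0.52 and 47 of 83 members called higher and none lower (background 10.6% and 11.8%). Of the 2 clusters in the class, the one holding 36 control and 99 cocultured cells stood at 8.52% and 11.5%, and the other, with 13 and 75 cells, at 16.6% and 19.3%. The cocultured share was thus higher in both clusters, by 0.43 and 0.22 on the log2 scale. Mitochondrial UMIs were 10.9% in control and 8.54% in cocultured enterocyte-like cells, and Gm42418, a transcript that overlaps rRNA sequence, was at 4.61% and 2.17%. Their part in the difference was not tested.

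Over all 13 clusters, the cocultured share was higher in 11. With each cocultured cluster weighted by its UMIs in the control library, the cocultured share was 23.2% and the log2 ratio 0.07, against 0.11 unweighted. An unnamed cluster with 81 control and 38 cocultured cells had RP shares of 12.9% and 15.7%. Lymphatic endothelial markers summed to 1.94 CPM in control and 3.54 CPM in cocultured cells, with 4 of 7 markers at 0 in each. Epithelial lists differed too. From control to coculture the stem list went from 922 to 579 CPM and the list of general epithelial markers from 7524 to 4651 CPM. The enterocyte list went from 7660 to 10362 CPM, the Paneth list from 6171 to 7580 CPM, the enteroendocrine list from 132 to 672 CPM and the deep crypt secretory list from 217 to 383 CPM. The colonocyte list went from 587 to 391 CPM and the tuft list from 7.62 to 3.24 CPM, while the goblet list stood at 2433 and 2408 CPM and the cycling list at 1694 and 1675 CPM. Their part in the RP share was not tested. Mitochondrial ribosomal protein genes had a median of 0.25, with 77 of 78 above 0 and none called, and the 26 ribosome assembly genes a median of 0.01.

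Within organoids, stem-like against enterocyte-like cells of both libraries summed gave a member median of 0.93, with 83 of 83 called higher (background 47.7%), where the all-gene median was 0.42. Cycling-like against enterocyte-like cells gave 0.85, with 81 of 83 higher (background 48.4%). None was lower in either (background 21.7% in each). Rps27l, which differed little in tissue of the small intestine, had 0.93 in organoids, at 884 and 465 CPM.

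Levels of single members could not be set side by side between tissue and organoid libraries without care. In stem-like cells Rpl10 stood at 14.5 CPM in small intestine tissue, 1979 CPM in control and 1834 CPM in cocultured organoids. Rps27 stood at 154, 2948 and 2633 CPM, and Rpl9 at 191, 3158 and 3304 CPM. The family as a whole had nearly the same share in these cells. Relative to the family, Rpl10 was thus 7.07 and 6.92 log2 units higher in control and cocultured organoids than in tissue. On the same scale Rps27 was 4.23 and 4.03 higher, and Rpl9 was 4.02 and 4.05 higher. Rpl35, Rps2, Rpl36a and Rps29 were at least 1 log2 unit higher in both organoid libraries and in both stem-like and cycling-like cells. Within 1 log2 unit of the family lay the other 76 of 83 members.

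For Rpl10, Rps27, Rpl9, Rpl36a and Rps29 the sections lay closer, on the log2 scale, to the organoids than to the tissue libraries. Over all barcodes, Rpl10 was 0.0101% of all RP UMIs in small and 0.0074% in large intestine tissue libraries, 0.781% and 0.707% in control and cocultured organoids, and 0.356% to 0.532% in the 4 sections. Rps27 was 0.0726% and 0.0579% in tissue libraries, and 0.856% to 1.30% in the organoids and sections. Rpl9 was 0.0764% and 0.0631% in tissue libraries, and 0.792% to 1.22% in the organoids and sections. In the same order Rpl36a was 0.252% and 0.248%, and 0.569% to 0.692%. Rps29 was 1.13% and 0.922%, and 1.87% to 2.40%. Rps2 and Rpl35 did not share this pattern. Rps2 was 0.892% and 0.967% in tissue libraries, 0.682% to 1.17% in sections and 2.12% and 2.23% in organoids. Rpl35 was 0.295% and 0.286% in tissue libraries, 0.216% to 0.383% in sections and 0.898% and 0.854% in organoids. The headers name the same program version for tissue and organoid libraries, and the tissue files carry 2 added GFP features. The cause of these differences was not tested. Shares of the Rps27l and Rps27 pair are touched by this. Rps27l held 77.7% of the pair in tissue stem-like cells, but 22.7% and 25.4% in control and cocultured organoid stem-like cells and 20.8% to 58.8% at the ends of the section axes. Rpl36al and Rpl36a shares are touched too, at 53.5% in tissue against 39.8% and 44.3% in organoid stem-like cells. Ratios within a library compare cells counted in the same way. Rps27 and Rps29 were also under the family median in organoids, at 0.72 and 0.59 and in sections, at 1.16 and 1.55 in small and 1.37 and 1.35 in large intestine.

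**Figure D4:**
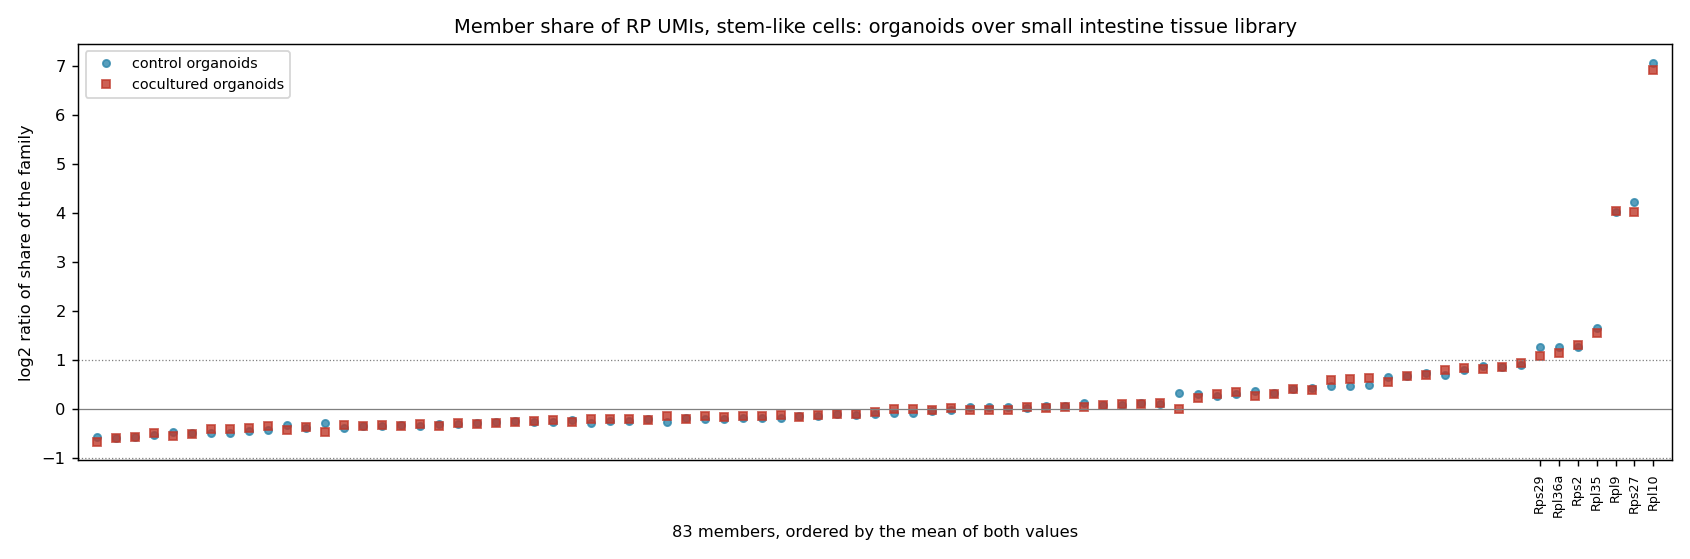
For each of 83 members (x axis, ordered by the mean of both values, with names for those at least 1 log2 unit up in both libraries), its share of all RP UMIs in organoid stem-like cells over its share in small intestine tissue stem-like cells, as a log2 ratio (y axis), for control and cocultured organoids. Dotted lines mark 1 log2 unit. The organoid libraries fall together, and Rpl10, Rps27 and Rpl9 stand 4.02 or more log2 units above the family in control organoids.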

How the data were processed

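The authors deposited filtered matrices of UMI counts per gene and barcode, with no normalization. Per the file headers they came from cellranger 6.0.1 (organoids and tissue) and spaceranger 1.2.1 (Visium), and per the submitters' processing notes the build was mm10. The annotation release and read lengths are not given in the sources used here. Barcodes needed 500 or more genes and no more than 20% mitochondrial UMIs. The highest Scrublet doublet scores were removed at 0.8% per 1000 cells, and spots with at least 500 UMIs were kept. Cells were clustered with scanpy 1.11.5 (2000 variable genes, 30 components, 15 neighbours, Leiden resolution 1, seed 0) without RP, mitochondrial, sex, GFP or listed genes. Clusters were named by marker lists, each name resting on 3 or more markers found in 10% of a cluster's cells and 1 log2 unit above the other cells. Enterocyte and Paneth names were not used in large intestine, nor colonocyte and deep crypt secretory names in small intestine and organoids. Classes are written with "-like".

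UMIs were summed per class, library or group of spots. Levels are CPM, differences are log2 ratios of CPM, and counts under 3 were set to 3. Intervals are Clopper-Pearson for shares and exact conditional Poisson intervals for ratios, with 95% coverage. The ratio and interval code was tested on simulated data. Named members were the 5 highest and 5 lowest in each comparison, the paralogs with their main copies, and Rps6, Rpl5, Rpl11, Rplp0, Rplp1, Rplp2 and Rpsa. Members, gene lists and markers were chosen with earlier results of these data known. Alternatives changed the cell filter, doublets, clustering, denominator, scaling, UMI minimum, members and choice of spots. RefSeq promoter sequences (GRCm38.p6) were matched by symbol. Visium spot positions were not used here, and some genes are not reported here by name.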

Additional observations from a re-analysis of the deposited data

Results flagged for a closer look

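Rps27l had opposite directions in the sections of the 2 intestines. Its crypt-end against villus-end log2 ratio was -0.10 and -0.30 in the small intestine sections, and its crypt-end against surface-end ratio was 1.04 and 1.08 in the large intestine sections. The difference of the means was -1.26 on the log2 scale. The sections are technical duplicates, and the difference was not tested. Stem-like against mature cells of the single-cell libraries gave -0.13 in small and 0.44 in large intestine. The RP share as a whole had mean ratios of 1.96 and 2.04 in the sections of small and large intestine.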

How the results depend on the processing

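All 87 alternative values of the RP share ratios kept their direction. In the order small intestine stem-like and cycling-like, large intestine stem-like and cycling-like (each against its mature class), organoids, small intestine spots and large intestine spots, leaving out mitochondrial genes gave 1.15, 0.89, 1.01, 0.78 and 0.10 for the first 5 and 1.97 for the last. Leaving out the 50 most abundant other genes too gave 0.95, 0.70, 0.84, 0.63, 0.0827 and, in large intestine spots, 1.68. Averaging single cells or spots gave 1.36, 1.06, 1.14, 0.93, 0.15, 1.80 and 2.01. Main copies alone gave 1.18 and 0.92 in small intestine and 1.06 for large intestine stem-like cells. For the first 5, the strict limit of 10% mitochondrial UMIs gave 0.96, 0.65, 0.32, 0.11 and 0.0692, the loose limit of 50% gave 0.70, 1.05, 1.63, 1.40 and 0.13, and keeping doublets gave 1.00, 0.76, 0.79, 0.86 and 0.11. The classes these filters gave also differed in their cells. The order of stem-like and cycling-like cells turned with the loose limit in small intestine and with doublets kept in large intestine. Resolution 0.5 gave 0.92 and 0.68 in small intestine and 0.76 for large intestine cycling-like cells, with no stem-like class there, and resolution 2 gave 1.00, 0.78, 1.58 and 1.31. Stem cells by an Lgr5 UMI gave 0.58 and 0.95.

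In spots of small and large intestine, the outer 10% of spots at each end gave 2.14 and 2.21, leaving out muscle-rich spots 2.23 and 2.20, and thinning to 2000 UMIs 1.81 and 1.87. Leaving out lymphoid-rich spots gave 2.10 in large intestine. Leaving out each section gave 1.86 to 2.06 in small and 2.03 to 2.04 in large intestine.

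Alternatives chosen after seeing the data kept the classes but only cells with at most 10% mitochondrial UMIs, which gave 1.08, 0.81, 0.44, 0.23 and 0.0727. Against single enterocyte-like clusters the ratios were 0.98, 2.32 and 1.14 for stem-like and 0.73, 2.07 and 0.89 for cycling-like cells. Against single colonocyte-like clusters they were 0.69 and 1.89, and 0.49 and 1.69. Median-of-ratios scaling gave 0.69, 0.56, 0.79, 0.63, 0.23, 1.2 and 1.46. Weighting cocultured clusters by their control UMIs gave 0.0697. The cause of these shifts was not tested.

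Of 120 alternative counts of called members, 111 stayed within 1.5 times. Those by cell filter, doublets, clustering and mature cluster were chosen after seeing the data. The members higher in large intestine went from 81 to 0 in stem-like and from 78 to 0 in cycling-like cells with the strict limit. They went to 23 and 4 with the 10% limit within classes, and to 43 for cycling-like cells against the colonocyte-like cluster of higher RP share. Members called lower went from 0 to 1, Rps27l, under median-of-ratios scaling in small intestine stem-like cells and in small intestine spots. With no UMI minimum they went from 0 to 2 in large intestine cycling-like cells and from 0 to 1 in organoids. Crypt-end and villus-end or surface-end spots were compared within each section, so these ratios are paired by section. Between libraries no paired analysis was possible because section numbers of small and large intestine mark different tissues and the single-cell groups have 1 library each.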
